A study of Caenorhabditis elegans with 15 samples.

Results

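The nuclear-encoded respiratory chain genes of C. elegans form a set of 53 genes here, out of 17138 genes with a probe set of their own on the array. They were chosen by name alone: the gene symbol in the platform annotation had to start with nuo, nduf, ndub, nduv, sdha, sdhb, sdhc, sdhd, ucr, cox, atp, asb or asg followed by a number, or be isp-1 or cyc-1. Of the 53 genes, 21 belong to complex I, 4 to complex II, 6 to complex III, 13 to complex IV and 9 to complex V. The complex IV genes split into 7 structural subunits and 6 assembly factors, which build the enzyme without being part of it. The symbols took in no gene of the mitochondrial genome.

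The respiratory chain sits in the inner mitochondrial membrane. Complexes I and II pass electrons from NADH and succinate to coenzyme Q, complex III passes them on to cytochrome c, and complex IV hands them to oxygen. Complexes I, III and IV pump protons, and complex V, the ATP synthase, lets the protons flow back and makes ATP. A C. elegans embryo starts with mitochondria and transcripts supplied by the mother and then cleaves without feeding, so early transcript levels mix maternal RNA with RNA made by the embryo.

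All embryos came from wild-type N2 hermaphrodites whose body cavity had been injected with dsRNA for the genes pal-1, mex-1 and lit-1, at least 12 h before embryos were taken, so every array carries the same triple RNA interference. Dissection gave embryos of 2 to 4 cells, which were kept at room temperature for 0, 1, 2, 3 or 4 h, and total RNA was hybridised to 1-colour Affymetrix arrays. Each time had 3 arrays, named A, B and C, which makes 15 in all. Uninjected embryos were not analysed here, so the values describe a time course of such embryos and carry no measure of the knockdown itself.

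The values are log2 expression values, as deposited, for 1 probe set a gene, the brightest 1 where a gene had several. The highest value that 15 control probe sets for background reached on any array, 3.22, is called the background mark here, and 48 of the 53 genes lay above it on all 15 arrays, against 6200 of all 17138 genes. None of the 53 stayed below it throughout. The 5 genes that dipped under the mark were sdha-1 (above it on 4 arrays), cox-17 (10), cox-10 (11), cox-18 (13) and nduf-2.2 (14), and differences of such genes are compressed. In 24 of the 53 genes the probe set carries the suffix _s_at and in 4 the suffix _x_at, which mark probes that can match more than 1 transcript.

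The arrays of a time correlated with each other over all probe sets at 0.962 to 0.985, except for the 2 pairs with 1 h B, at 0.914 and 0.915. Array 1 h B was the lowest of its time in 41 of the 53 genes (77.4%), against 31.3% of all genes, and lay a median of 0.77 below the mean of the other 2 on the log2 scale. The time tags of 1 h B and 1 h C read 2 h and 3 h, against 1 h in their titles. The titles were followed, since the design text gives 3 samples per time, and results that use 1 h are also given by the tags and without 1 h B. Array 1 h C correlated at 0.981 with 1 h A and at 0.871 to 0.882 with the 3 h arrays. Array 1 h B correlated at 0.914 with 1 h A and at 0.850 to 0.878 with the 2 h arrays. The means of marker lists on each array were followed as well. The mean of 8 oocyte and early embryo genes lay between 9.73 and 10.9 at 0 h, 6.36 and 8.46 at 1 h, 4.13 and 4.94 at 2 h, 3.75 and 3.83 at 3 h, and 3.87 and 4.05 at 4 h. The mean of 5 yolk genes, which mark the mother's gut, was at most 6.90 at 1 h (on 1 h B), against at most 4.47 at 0 h. The mean of 6 mesoderm and pharynx regulators lay between 6.42 and 6.78 at 4 h and between 3.20 and 3.38 at 0 h. That of 4 body wall muscle genes lay between 4.53 and 4.79 at 4 h and between 3.78 and 4.08 at 0 h. That of 7 sperm genes lay between 3.71 and 3.90 at 4 h, between 3.55 and 4.03 at 1 h and between 3.19 and 3.31 at 0 h. That of 3 embryonic gut genes stayed between 3.14 and 3.83 on every array. The part of these markers in the results below was not tested, and in whole embryos fewer cells of a type and less RNA per cell cannot be told apart.

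By 4 h most respiratory chain transcripts stood near their level at 0 h, and a small group had fallen. Of the 53 genes, 8 were lower and 1 was higher at 4 h than at 0 h at an adjusted p under 0.05 (limma, adjusted over all 22548 probe sets), together 9 of 53. Among all genes 16.8% were called, 9.71% lower and 7.08% higher, and 27.7% of the genes with a mean above the background mark were called. The share called in the set was thus near that of all genes. The genes that fell were nduf-2.2, asb-1, atp-1, sdha-2, atp-2, ucr-2.3, cox-15 and cox-17, and the gene that rose was ndub-8. In 42 of the 53 genes the difference was under 1 in size on the log2 scale, and the 3 arrays at 4 h and the 3 at 0 h did not overlap in 17 genes, while they did not overlap in 34% of all genes. The median difference was -0.16 over the 53 genes and 0.10 over all genes. Without 1 h B, which enters the shared estimate of the spread, 10 genes were lower and 1 was higher, with sdhd-1 (-1.52, adjusted p 0.029) and asg-1 (-0.73, adjusted p 0.036) added. Among all 17138 genes 1853 were then lower and 1410 higher.

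**Figure D1:**
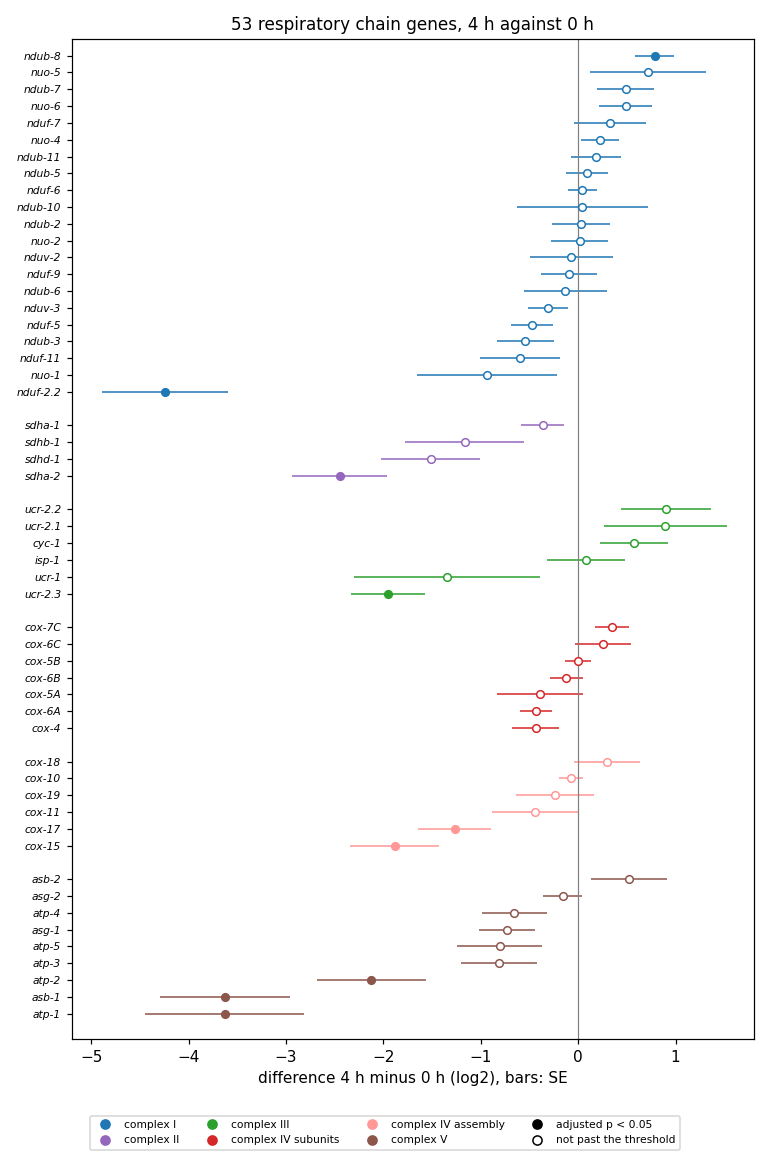
Difference between 4 h and 0 h (log2, horizontal axis) for each of the 53 genes, grouped by complex, with the standard error of the limma model as a bar. Filled points passed the adjusted p threshold of 0.05: 8 lie left of 0 and ndub-8 lies right of it, while 42 genes lie within 1 unit of 0.

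The median differences of the complexes between 4 h and 0 h were 0.03 for complex I, -1.34 for complex II, 0.33 for complex III, -0.12 for complex IV subunits, -0.34 for complex IV assembly factors and -0.81 for complex V. In complex II all 4 genes and in complex V 8 of 9 genes had a difference below 0, against 5786 of all 17138 genes. The complex II gene sdha-1 (-0.36) lay at or near background, and its other probe set gave 0.13. In complex I 12 of 21 genes lay above 0 and 9 below. These medians are descriptions, and differences between complexes were not tested. Centring each array on its hybridisation controls or on its ribosomal protein genes moved the median of all genes to -0.86 and -1.23 and those of complexes I and III below 0 with it, so directions of a complex hold relative to the median of all genes only. Medians over the genes of a complex on single arrays show how far replicates spread: that of complex II was -0.46, -1.35 and -2.22 on the 4 h arrays A, B and C relative to each gene's mean at 0 h, so the complex II value at 4 h depends on the array. Array 4 h C was the lowest of its time in all 4 complex II genes, and leaving out single arrays put the complex II median between -1.78 and -0.90. For complex V the 3 arrays at 4 h gave -0.39, -1.15 and -0.72, and the median stayed between -0.98 and -0.63.

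**Figure D2:**
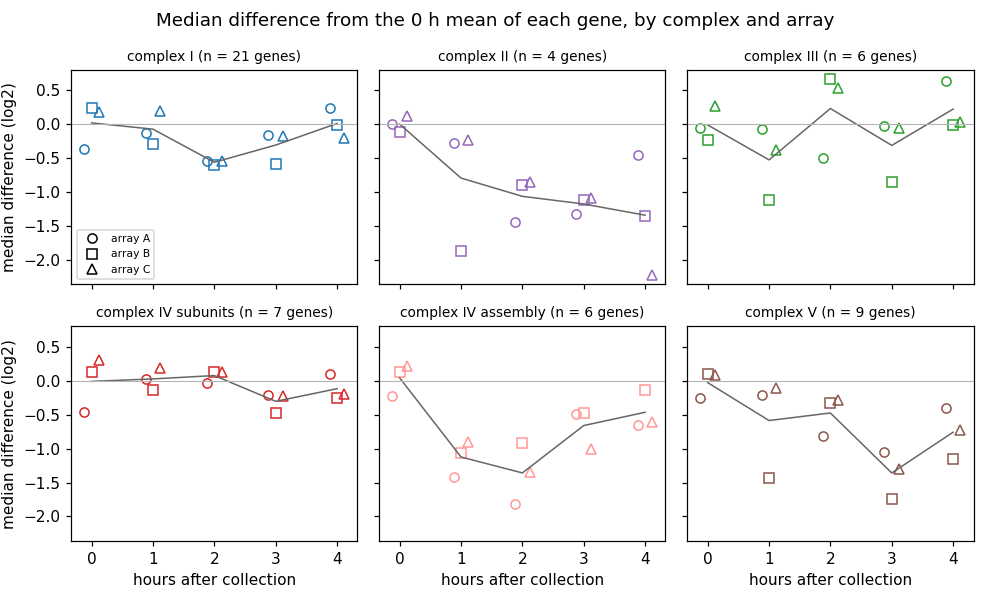
Median over the genes of each complex of the difference from the gene's own mean at 0 h (log2, vertical axis), by hours after collection; points are single arrays and the line joins their means. Complex I dips at 2 h, complex IV assembly factors are lowest at 1 h and 2 h, complexes IV (subunits) and V are lowest at 3 h, and the 1 h B array (square) is the lowest 1 h point in 5 of the 6 panels.

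Complex I, the NADH dehydrogenase, has a peripheral arm that oxidises NADH and reduces coenzyme Q and a membrane arm that pumps protons. Its largest difference was in nduf-2.2, which encodes a core subunit of the peripheral arm next to the coenzyme Q site and is a paralogue of gas-1. On arrays A, B and C, nduf-2.2 measured 7.44, 7.61 and 8.33 at 0 h, 7.51, 5.02 and 7.72 at 1 h, 4.42, 6.10 and 5.67 at 2 h, 5.51, 4.29 and 4.87 at 3 h and 3.77, 3.83 and 3.03 at 4 h. Every 4 h array lay below every array of the 4 earlier times, and 4 h C lay under the background mark. The transcript fell by 4.25 ± 0.65 (SE) on the log2 scale between 4 h and 0 h (adjusted p 0.00042, limma). Its mean was lower at each later time (7.79, 6.75, 5.40, 4.89 and 3.54 from 0 h to 4 h), and no single step passed the threshold with all arrays. Without 1 h B the step between 2 h and 1 h passed, at -2.22 (adjusted p 0.012), against -1.35 (adjusted p 0.27) with it. Its paralogue gas-1, whose symbol lies outside the naming rule, averaged 6.97 at 4 h and 6.58 at 0 h (difference 0.39 ± 0.59, adjusted p 0.73). The difference between both genes' changes was not tested.

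The only rise was in ndub-8, an accessory subunit of the membrane arm. It measured 7.90, 8.49 and 8.33 at 0 h, between 8.48 and 8.96 on the 9 arrays from 1 to 3 h, and 9.33, 8.61 and 9.14 at 4 h. The 4 h arrays all exceeded the 0 h arrays, narrowly in the closest pair. Its difference was 0.79 ± 0.20 (adjusted p 0.015), and its sign turned with centring on hybridisation controls (-0.17) or on ribosomal protein genes (-0.54). The call was also lost without 0 h A (adjusted p 0.067), 4 h A (0.067) or 4 h C (0.058) and with median centring (0.055). The other ndub genes and nuo-6 gave differences with no call, from -0.54 in ndub-3 to 0.49 in ndub-7 and nuo-6.

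The remaining complex I genes showed no call between 4 h and 0 h. Among the subunits that carry flavin or iron-sulphur centres, nuo-1 (the NADH binding subunit) differed by -0.94 ± 0.72, nduv-2 by -0.07 ± 0.42, nuo-5 by 0.72 ± 0.60 and nduf-7 by 0.33 ± 0.37. The array values of nuo-1 at 4 h were 8.70, 8.20 and 6.15, which spread widely. For nuo-5 the other probe set of the gene gave -0.78, the opposite sign, also with no call. The quinone-side subunit nuo-2 differed by 0.02 ± 0.29, and the accessory subunits nuo-4, nduf-6, nduf-9, nduv-3, nduf-5 and nduf-11 ranged from 0.22 in nuo-4 to -0.59 in nduf-11.

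With all arrays, complex I genes were called between successive times only at 2 h against 1 h. Of the 21 genes, 11 had their lowest time mean at 2 h. At 2 h 16 of 21 were lower than at 1 h, as were 10876 of all 17138 genes. The median difference of that step was -0.46 in complex I and -0.08 over all genes. Genes that fell between these times were nduf-5, nuo-2, nuo-6 and ndub-5, all of complex I. In the whole set 4 genes were lower and 2 higher at 2 h than at 1 h, where 3.57% of all genes were lower and 6.31% higher. The most marked was nduf-5, an accessory subunit that carries disulphide bonds and lies on the intermembrane face. It measured 8.17, 9.08 and 8.87 at 0 h, 8.34, 8.57 and 8.44 at 1 h, 6.62, 6.36 and 6.79 at 2 h, 7.32, 7.68 and 7.16 at 3 h and 8.26, 8.42 and 8.03 at 4 h. All 3 arrays at 2 h lay below the other 12 arrays. The difference between 2 h and 1 h was -1.86 ± 0.22 (adjusted p 0.00012), and its F test over the 5 times had the lowest adjusted p of the set, 4.5e-05. Without 1 h B the nduf-5 difference was -1.80 (adjusted p 0.00056), and with arrays placed by their tags it was -1.25 (adjusted p 0.90).

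The other 3 falls at 2 h were smaller. The quinone-side subunit nuo-2 averaged 6.79 ± 0.21 at 2 h and 7.87 ± 0.60 at 1 h (SD, n = 3 each; difference -1.08 ± 0.29, adjusted p 0.034 from limma). The membrane-arm subunit nuo-6 averaged 9.03 ± 0.27 at 2 h and 10.04 ± 0.23 at 1 h (difference -1.01 ± 0.27, adjusted p 0.032). For ndub-5 the means were 8.87 ± 0.18 at 2 h and 9.68 ± 0.42 at 1 h (difference -0.82 ± 0.22, adjusted p 0.033). In these 3 genes the arrays of both times did not overlap. Without 1 h B, nuo-2 (adjusted p 0.13) and nuo-6 (0.088) lost their calls and ndub-5 kept its call (0.0080), but ndub-5 lost it without 1 h A (0.086), 1 h C (0.11), 2 h B (0.090) or 2 h C (0.13). Over all alternatives that tested them, the calls of nuo-2, nuo-6 and ndub-5 were lost under 12 of 25, 9 of 26 and 10 of 25. The set's count of lower genes was 8 without 1 h B instead of 4, with nduf-2.2 and asb-1 among those added. The complex I median for this step was -0.46 with all arrays and -0.83 without 1 h B. By the tags, 1 h A is the only 1 h array, and 0 genes of the set passed in either direction.

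Since the dip at 2 h was seen in the values, the comparisons of 2 h with 0 h and of 4 h with 2 h were added afterwards, and they describe that pattern without being independent of it. At 2 h, 10 genes of the set were lower and 1 was higher than at 0 h, against 8.83% and 7.32% of all genes. Complex I gave 6 of the lower genes (nduf-2.2, nduf-5, nduf-6, nduf-9, nduv-3 and nuo-2), with differences from -0.63 in nduf-6 to -2.39 in nduf-2.2, and the others were cox-15, cox-17, cox-19 and asb-1. The calls of nduf-5, cox-15, cox-17 and cox-19 held under every alternative that tested them, and that of nduv-3 was lost most often, under 10 of 25. At 4 h, 4 genes were higher and 1 was lower than at 2 h, against 2.3% and 3.69% of all genes. The higher genes were nduf-5 (1.64 ± 0.22), nduf-6 (0.68 ± 0.15), ndub-7 (1.24 ± 0.29) and the complex IV assembly factor cox-19 (1.67 ± 0.40). The nduf-5 call was lost under 2 of 26 alternatives, that of nduf-6 under 7 of 26, that of ndub-7 under 8 of 25 and that of cox-19 under 6 of 26. Leaving out 4 h A (adjusted p 0.071), 4 h B (0.056) or 4 h C (0.088) each ended the ndub-7 call. In nduf-6, an accessory subunit of the peripheral arm, the arrays read 8.86, 9.31 and 9.21 at 0 h, 8.55, 8.35 and 8.58 at 2 h and 9.26, 8.99 and 9.25 at 4 h. Its values at 2 h were lower than at both ends, and those at 4 h and 0 h overlapped. Without 1 h B, 15 genes were lower at 2 h than at 0 h and 7 were higher at 4 h than at 2 h; by the tags, 0 genes were higher at 4 h than at 2 h.

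**Figure D3:**
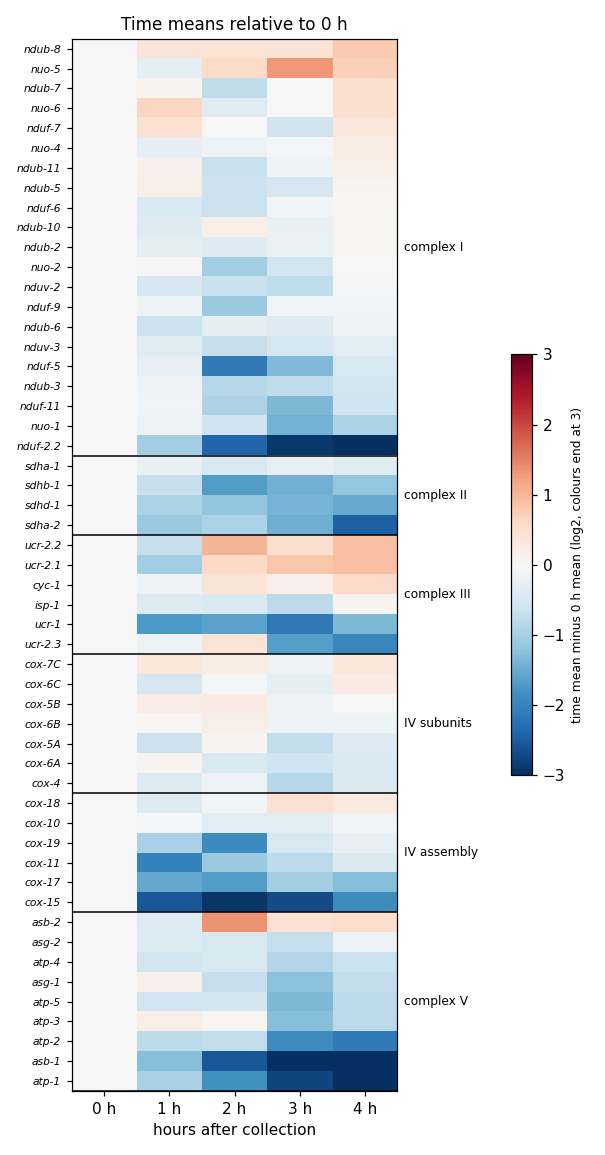
Mean of 3 arrays at each time minus the mean at 0 h (log2, colour scale that ends at 3 in each direction) for the 53 genes in rows, grouped by complex, with time from left to right. Blue at 2 h that fades by 4 h marks nduf-5, nduf-9, nuo-2 and cox-19, and blue that deepens to 4 h marks nduf-2.2, sdha-2 and atp-1.

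Complex II, succinate dehydrogenase, is shared with the citric acid cycle and has a flavoprotein subunit, an iron-sulphur subunit and membrane anchors. The flavoprotein gene sdha-2 measured 7.05, 7.26 and 7.35 at 0 h, 6.39, 5.47 and 6.46 at 1 h, 5.75, 6.58 and 6.50 at 2 h, 4.91, 6.49 and 5.86 at 3 h and 5.35, 5.33 and 3.64 at 4 h. All arrays from 1 h on lay below the 0 h arrays. It fell by 2.45 ± 0.49 between 4 h and 0 h, a 5.46-fold difference (adjusted p 0.0031). The iron-sulphur gene sdhb-1 read between 8.47 and 9.81 at 4 h, lowest on array C, and 10.49, 10.04 and 10.45 at 0 h. Its difference of -1.17 ± 0.61 was not called (adjusted p 0.25), although the arrays did not overlap, and its other probe set gave -1.32. The anchor gene sdhd-1 read 8.72, 7.53 and 6.54 at 4 h and 8.50, 9.33 and 9.50 at 0 h (difference -1.52 ± 0.51, adjusted p 0.065). The other anchor gene, mev-1, whose symbol lies outside the naming rule, gave -1.52 ± 0.59 (adjusted p 0.11). The second flavoprotein gene, sdha-1, lay at or near background throughout, with a mean of 3.16 over all arrays.

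Complex III, the cytochrome bc1 complex, holds core proteins of the ucr genes, the Rieske iron-sulphur protein ISP-1 and cytochrome c1 (cyc-1). Of the 3 core 2 paralogues, ucr-2.3 ran a course apart from ucr-2.1 and ucr-2.2, and differences between the genes were not tested. Values of ucr-2.3 were 7.78, 7.72 and 8.31 at 0 h, 8.15, 6.85 and 8.31 at 1 h, 8.10, 8.43 and 8.53 at 2 h, 5.66, 6.32 and 6.88 at 3 h and 5.88, 5.73 and 6.34 at 4 h. The 3 h and 4 h arrays all lay below those of 0 h and 2 h. The fall was placed between 2 h and 3 h, where ucr-2.3 was the only gene of the set called (difference 3 h minus 2 h -2.06 ± 0.38, adjusted p 0.0083) and 2.09% of all genes were lower and 0.858% higher. Without 1 h B, cox-4 was called lower as well, and by the tags 0 genes were. The difference of ucr-2.3 was -1.95 ± 0.38 between 4 h and 0 h (adjusted p 0.0025) and -2.37 ± 0.38 between 4 h and 2 h (adjusted p 0.0016).

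In ucr-2.2 the arrays read 5.73, 5.66 and 6.02 at 0 h, 5.46, 4.65 and 5.25 at 1 h, 6.09, 7.47 and 6.88 at 2 h, 6.01, 6.26 and 6.62 at 3 h and 7.71, 6.84 and 5.58 at 4 h. It was higher at 2 h than at 1 h by 1.69 ± 0.46 (adjusted p 0.038), a call that was lost without 1 h B (1.46, adjusted p 0.13) and under 15 of the 26 alternatives. Its other probe set gave 2.00 for that step and -0.17 between 4 h and 0 h, with no call. The third paralogue, ucr-2.1, averaged 7.62 ± 0.32 at 4 h and 6.73 ± 0.40 at 0 h (SD, n = 3 each), which was not called (difference 0.89 ± 0.63, adjusted p 0.41 from limma). Like ucr-2.2 it had its lowest time mean at 1 h, and its difference between 2 h and 1 h was 1.65 ± 0.63 (adjusted p 0.15). The core 1 gene ucr-1 spread most within a time, from 4.15 to 9.01 at 1 h, and its difference of -1.35 ± 0.95 between 4 h and 0 h was not called. The genes isp-1 (0.08 ± 0.40) and cyc-1 (0.57 ± 0.35) were not called in any comparison.

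The 7 complex IV subunit genes had the lowest median spread of the 6 lists. Their means over all arrays lay between 10.20 (cox-6C) and 11.72 (cox-6A), and their median SD within a time was 0.21, against 0.39 in complex I, 0.52 in complex IV assembly factors and in complex V, 0.58 in complex III and 0.67 in complex II. Single genes crossed these lines: the SD of cox-5A was 0.59, and that of the assembly factor gene cox-10, near background, was 0.13. Brightness differs between probe sets for technical reasons as well, so these levels do not rank the genes by abundance. The differences between 4 h and 0 h ran from -0.44 in cox-4 to 0.35 in cox-7C. On the probe sets used, none of the 7 was called with all arrays in a comparison of 2 times. In at least 1 comparison 4 of them reached an unadjusted p under 0.05 (limma), as 47.8% of all genes did. Another probe set of cox-6A, with a mean of 11.70, was called lower at 2 h than at 1 h (-0.43, adjusted p 0.031). It was also called lower at 2 h than at 0 h (-0.41, adjusted p 0.026), while the remaining cox-6A probe set was not called. In cox-5B the 3 arrays read 11.53, 11.23 and 11.41 at 4 h and 11.15, 11.48 and 11.54 at 0 h, a difference of 0.00 ± 0.13. A shallow low point at 3 h ran through the group: all 7 genes were lower at 3 h than at 2 h and higher at 4 h than at 3 h, and 6 of 7 had their lowest time mean at 3 h. Of all 17138 genes 7036 were lower at 3 h than at 2 h and 9417 were higher at 4 h than at 3 h. For the step between 3 h and 2 h the median difference was -0.37, against 0.04 for all genes, and by the tags it was -0.17. The F test over the 5 times called cox-6A (adjusted p 0.025), which averaged 12.01, 12.08, 11.54, 11.41 and 11.58 from 0 h to 4 h.

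The complex IV assembly factors comprise cox-10 and cox-15, which make heme O and heme A, cox-11, cox-17 and cox-19, which serve copper delivery, and cox-18, which inserts a subunit into the membrane. Between 1 h and 0 h, 3 of the 53 genes were called, all lower and all assembly factors, where 6.31% of all genes were lower and 3.57% higher. The heme A synthase gene cox-15 measured 6.81, 7.39 and 7.51 at 0 h, 5.05, 3.93 and 5.11 at 1 h, 3.32, 4.56 and 5.11 at 2 h, 5.11, 3.95 and 4.58 at 3 h and 5.30, 5.11 and 5.65 at 4 h. Every later array lay below the 0 h arrays. Its difference was -2.55 ± 0.45 between 1 h and 0 h (adjusted p 0.0026) and -1.89 ± 0.45 between 4 h and 0 h (adjusted p 0.011).

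The copper factor gene cox-11 read 5.19, 3.71 and 5.45 at 1 h and 6.80, 6.91 and 6.71 at 0 h, a difference of -2.02 ± 0.44 (adjusted p 0.010). At 4 h it read 6.05, 6.95 and 6.09, and the difference from 0 h was -0.44 ± 0.44 (adjusted p 0.58). The copper chaperone gene cox-17 fell by 1.53 ± 0.37 between 1 h and 0 h (adjusted p 0.021) and by 1.27 ± 0.37 between 4 h and 0 h (adjusted p 0.034). Its arrays at 4 h were at 3.39, 3.36 and 3.26, just above the background mark, against 3.74 to 5.07 at 0 h, lowest on array A. Without 1 h B all 3 genes were still lower at 1 h than at 0 h, with differences of -2.16 in cox-15 and -1.49 in cox-11. The cox-17 call for that step was lost without 0 h B (adjusted p 0.086), 0 h C (0.10), 1 h A (0.068) or 1 h C (0.070), and its call between 4 h and 0 h was lost without 0 h B (0.13), 0 h C (0.15) or any single 4 h array (0.070 to 0.095). By the tags, where the 1 h group is a single array, none was called (adjusted p 0.13 in cox-15 and 0.53 in cox-11).

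The copper factor gene cox-19 had its low point at 2 h. It measured 7.31, 8.14 and 8.48 at 0 h, 6.77, 6.74 and 7.54 at 1 h, 6.10, 5.66 and 6.44 at 2 h, 8.23, 7.42 and 6.85 at 3 h and 7.45, 8.31 and 7.47 at 4 h. The 2 h arrays lay below all others, and the 4 h and 0 h arrays overlapped. The difference between 2 h and 0 h was -1.91 ± 0.40 (adjusted p 0.0047), and no alternative run ended that call. The genes cox-10 and cox-18 stayed within 1 unit of the background mark in their time means, and neither was called.

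**Figure D4:**
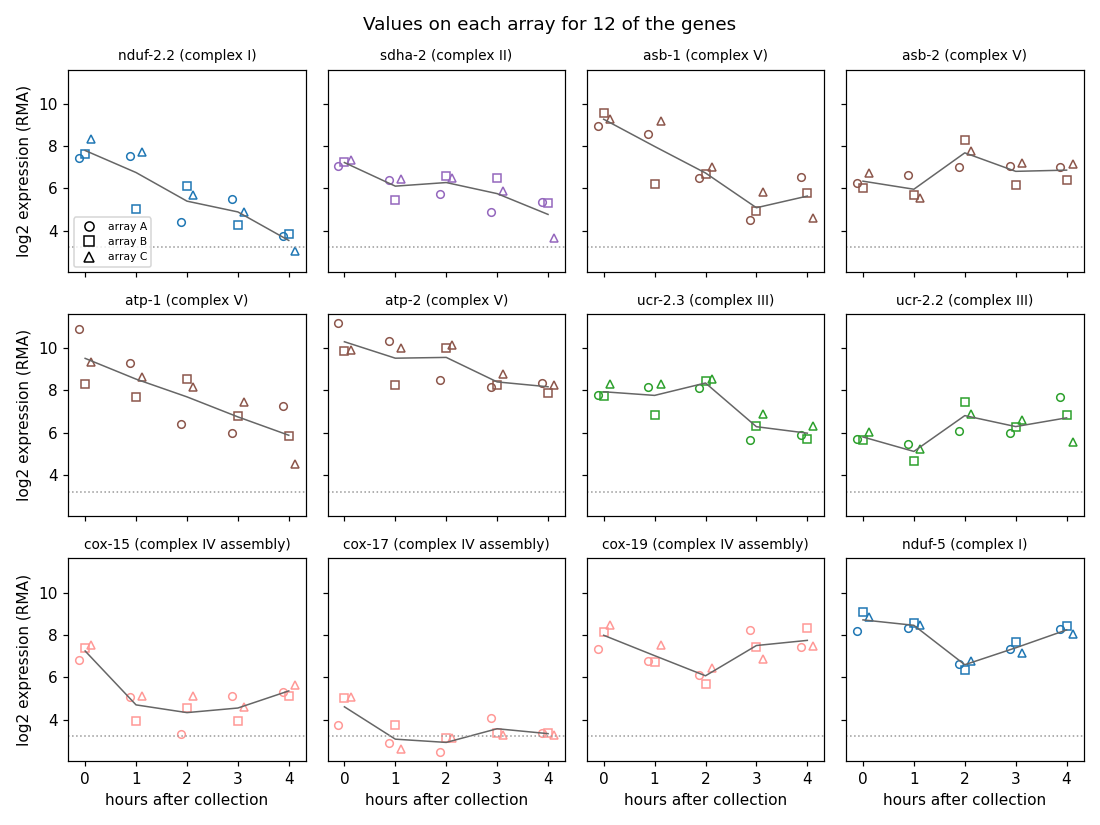
Deposited log2 expression (vertical axis) on each array at 0 to 4 h after collection for 12 genes; circles, squares and triangles are arrays A, B and C, the line joins the time means and the dotted line is the background mark of 3.22. The time means of nduf-2.2 and atp-1 descend to 4 h, those of asb-1 descend to 3 h, ucr-2.3 steps down between 2 h and 3 h, and nduf-5 and cox-19 are lowest at 2 h.

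Complex V, the ATP synthase, has a catalytic F1 head of alpha (atp-1) and beta (atp-2) subunits and a membrane part held to it by a stalk, to which subunit b (asb-1 and asb-2), OSCP (atp-3) and subunit d (atp-5) belong. Both the alpha and the beta gene fell. Values of atp-1 were 10.91, 8.29 and 9.34 at 0 h, 9.30, 7.68 and 8.63 at 1 h, 6.40, 8.55 and 8.14 at 2 h, 6.01, 6.79 and 7.46 at 3 h and 7.26, 5.87 and 4.53 at 4 h. The spread within a time was wide, with an SD of 1.11 pooled over the times, yet the 4 h arrays lay below all 0 h and 1 h arrays. The difference between 4 h and 0 h was -3.63 ± 0.82, 12.4-fold (adjusted p 0.0071). For atp-2 the arrays read 8.36, 7.90 and 8.26 at 4 h and 11.17, 9.84 and 9.89 at 0 h, a difference of -2.13 ± 0.56 (adjusted p 0.019). That call was lost without 0 h A (adjusted p 0.078) or 4 h B (0.066).

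Subunit b is encoded by a pair of genes, of which asb-1 is the one known for its germline role. It measured 8.97, 9.56 and 9.27 at 0 h, 8.59, 6.19 and 9.16 at 1 h, 6.48, 6.70 and 7.00 at 2 h, 4.50, 4.91 and 5.85 at 3 h and 6.53, 5.77 and 4.61 at 4 h. The arrays of 3 h and 4 h all lay below those of 0 h. It fell by 3.63 ± 0.67 between 4 h and 0 h (12.4-fold, adjusted p 0.0017). The paralogue asb-2 read 6.25, 6.03 and 6.74 at 0 h, 6.65, 5.69 and 5.54 at 1 h, 7.00, 8.26 and 7.77 at 2 h, 7.05, 6.18 and 7.19 at 3 h and 7.03, 6.41 and 7.15 at 4 h. It was higher at 2 h than at 1 h by 1.72 ± 0.39 (adjusted p 0.013) and higher at 2 h than at 0 h by 1.34 ± 0.39 (adjusted p 0.033), while 4 h and 0 h differed by 0.52 ± 0.39 (adjusted p 0.44). Its call at 2 h against 1 h held without 1 h B and was lost by the tags (0.53, adjusted p 1.00) and without 1 h C (0.053) or 2 h B (0.070). The call at 2 h against 0 h was lost under 8 of 26 alternatives, among them leaving out 0 h A (adjusted p 0.087), 0 h B (0.12), 2 h B (0.15) or 2 h C (0.098).

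The log2 value of asb-2 minus that of asb-1 was 0.50, 0.64 and 2.54 on the 4 h arrays and -2.72, -3.53 and -2.53 on the 0 h arrays. The change of 4.15 had a two-sided exact permutation p of 0.1, the smallest that 3 arrays against 3 can give (0.15 adjusted over the 3 paralogue pairs computed). For the pair sdha-1 and sdha-2 no change is given, since sdha-1 was above the background mark on 4 of 15 arrays. For the subunit g pair asg-1 and asg-2 it was -0.57 (exact permutation p 0.3, adjusted 0.3). A within-array difference of 2 probe sets can be followed over time but does not give the ratio of both transcripts.

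The other complex V genes gave differences between 4 h and 0 h of -0.81 in atp-3 and atp-5, -0.73 in asg-1, -0.65 in atp-4 and -0.16 in asg-2, with no call. As in the complex IV subunits, 3 h was a low point. All 9 genes were lower at 3 h than at 2 h (median -0.87), against 7036 of all 17138 genes, and 6 of 9 had their lowest time mean at 3 h. At 4 h, 7 of 9 were higher than at 3 h (median 0.47), against 9417 of all genes. By the tags, which place 1 h C at 3 h, these medians were -0.43 and -0.0020. No single gene of complex V passed the threshold in these steps. The F test called atp-3, whose time means were 8.92, 9.11, 8.97, 7.63 and 8.11 from 0 h to 4 h (adjusted p 0.045), and asg-1, with 9.86, 10.01, 9.16, 8.62 and 9.12 (adjusted p 0.013).

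Between 4 h and 3 h, 0 of the 53 genes passed the threshold with limma, where 0.572% of all genes were higher and 0.799% lower. With unadjusted p below 0.05 the count was 7, all of them higher, where 3.75% of all genes were higher at that threshold. The median difference was 0.28 over the 53 genes, with 42 of them above 0, and 0.02 over all 17138 genes, with 9417 of them above 0. Over the whole time course the F test called 17 of the 53 genes, against 21.2% of all genes and 35.4% of the genes with a mean above the background mark, and 32 genes passed neither the F test nor any of the 5 planned comparisons. Highest time means fell at 0 h for 26 of the 53 genes and at 4 h for 11. Among single arrays, 0 h A was the lowest of its time in 37 of the 53 genes (69.8%, against 34.1% of all genes), with a median of -0.45 from the mean of the other 2 arrays.

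Neighbouring parts of energy metabolism, from lists of other genes, were read from the same fit. Genes said here to have fallen or risen passed the adjusted p threshold of 0.05 (limma) between 4 h and 0 h. Of all genes 9.71% were lower and 7.08% higher at that threshold. Of the genes with a mean above the background mark, 27.7% were called in either direction. Of 13 further respiratory chain genes with other names, nuaf-1, an assembly factor gene of complex I, rose by 0.96 between 4 h and 0 h, and cyc-2.1, a cytochrome c gene, and hpo-18, the ATP synthase epsilon gene, fell by 0.94 and 0.85. Of 4 ADP/ATP carrier genes, ant-1.1 fell by 1.48 and the other 3 had means below the background mark. Of 19 genes of pyruvate dehydrogenase and the citric acid cycle, 7 fell and 0 rose, with a median of -1.46. The falls included pdha-1 by 3.74, mdh-2 by 3.63 and fum-1 by 3.03. Of 16 glycolysis genes measured, 6 fell and 0 rose (median -1.43), among them aldo-2 by 6.61 and pyk-1 by 4.12. Of 16 mitochondrial import genes, 3 fell and 1 rose, and of 7 coenzyme Q genes measured coq-8 alone fell, by 1.25. Of 7 mitochondrial chaperone and stress response genes 4 fell, and of 6 genes of mitochondrial genome upkeep polg-1, the mitochondrial DNA polymerase gene, rose by 2.87. The counts of these lists and of the respiratory chain genes were not tested against each other.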

How the data were processed

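The authors' deposited table held log2 expression values for 22625 probe sets on 15 arrays, and the submitters' processing notes name RMA without a version. That method corrects background, normalizes between arrays and compresses low values. Scanner files and calls of presence were not used. All columns were assigned by name and 0 were left out. The 77 control probe sets were removed, leaving 22548, of which 20810 had 1 gene symbol. A gene was read from its brightest probe set with that symbol alone. No coordinates are given, since the annotation states no build.

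Arrays were grouped by title and all 5 times were fitted together with lmFit and eBayes of limma 3.58.1 (R 4.3.3), with Benjamini-Hochberg adjustment over all probe sets and a threshold of 0.05. Adjusted p-values are limma's. Differences are log2 values with the model's SE. The design text calls the samples independent without saying whether mothers or days differed, so p-values measure a spread that may be technical. With 3 arrays per time, precision is limited by their number. The median SE of a difference between 4 h and 0 h was 0.37 for the 53 genes. The procedure was tested on simulated data. Alternatives were the time tags, leaving out arrays, a replicate block, other centring, a background filter, array weights, other moderation and other probe set choices. Counts over all genes under the alternatives were made for 4 h against 0 h only. Any of the 53 genes past the threshold could be named, with others of its complex. Members and lists were chosen with earlier results of these data known.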

Additional observations from a re-analysis of the deposited data

How the results depend on the processing

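The 35 calls of single genes were tried under up to 26 alternatives, 895 trials in all, of which 752 kept the call, 141 lost it and 2 turned its sign. Part of these trials could hardly end a call. Leaving out an array of another time leaves the difference as it is. Averaging probe sets leaves the values of the 37 genes with 1 probe set as they are. For a gene already read from a plain _at probe set, the plain _at choice repeats the main result. The count kept is thus no measure of robustness. Both turns of sign were in ndub-8 between 4 h and 0 h, at -0.17 after centring on hybridisation controls and -0.54 after centring on ribosomal protein genes. Between 4 h and 0 h, nduf-2.2, sdha-2, ucr-2.3, cox-15, asb-1 and atp-1 kept their calls under every alternative that tested them, atp-2 lost its call without 0 h A (adjusted p 0.078) or 4 h B (0.066), and cox-17 under 6 alternatives. The genes sdha-2, cox-15, asb-1, atp-1 and atp-2 have an _s_at probe set only, which can match more than 1 transcript. The plain _at choice therefore did not test them. RMA values have no depth, and 3 arrays per time limit what can be called.

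Leaving out single arrays gave 6 to 11 lower and 0 to 1 higher genes between 4 h and 0 h, 2 to 5 lower at 1 h than at 0 h, 1 to 8 lower and 0 to 3 higher at 2 h than at 1 h, 1 to 2 lower and 0 to 1 higher at 3 h than at 2 h, 0 to 1 higher at 4 h than at 3 h, and 8 to 21 by the F test. The complex I median lay between -0.33 and 0.10 at 1 h against 0 h and between -0.83 and -0.33 at 2 h against 1 h, that of complex V between -0.91 and -0.14 and between -0.53 and 0.076.

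Placing arrays by their tags left 0 calls in every step from 0 h to 3 h and 3 by the F test, with complex V medians of -0.65 (2 h against 1 h), -0.43 (3 h against 2 h) and -0.0020 (4 h against 3 h). Without both arrays in conflict, 0 genes were lower at 1 h than at 0 h, 1 was lower and 0 higher at 2 h than at 1 h, 2 were lower at 3 h than at 2 h, and the complex V median at 2 h against 1 h was -0.49. Whether the letters A to C pair the arrays is not stated. Deviations from the time means correlated between -0.31 and 0.34 for same-letter arrays and between -0.36 and 0.41 for others. A shared origin of same-letter arrays was not tested. A replicate block gave 1 lower and 1 higher gene at 2 h than at 1 h.

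Array weights gave 14 lower genes between 4 h and 0 h, where 1989 of all 17138 genes were lower. They also gave 6 lower at 1 h than at 0 h, 10 lower at 2 h than at 1 h, 5 lower and 1 higher at 3 h than at 2 h and 1 higher at 4 h than at 3 h. The F test then called 31, and the complex V median at 1 h against 0 h was -0.14. Trended and robust moderation gave 0 higher genes between 4 h and 0 h and 2 lower at 2 h than at 1 h. With plain _at probe sets, which cover 29 of the genes, 3 were lower and 0 higher between 4 h and 0 h. Under that choice 2 were lower at 2 h than at 1 h and 8 were called by the F test. The complex II value of -0.36 was then that of sdha-1 alone, a gene at or near background, so it does not stand for the complex.

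Centring on the median gave 0 higher genes between 4 h and 0 h and 1 lower at 2 h than at 1 h. The higher share of all calls between 4 h and 0 h was 42.2% as deposited, 35.4% with median centring, 35.7% by the tags, 11.5% with hybridisation controls and 2.80% with ribosomal protein genes. Centring on ribosomal protein genes gave 49 lower and 0 higher genes between 4 h and 0 h, where 15405 of all 17138 genes were lower and 444 higher. The share called in the set was thus near that of all genes. That centring also gave 10 lower at 1 h than at 0 h, 39 lower and 0 higher at 2 h than at 1 h, 3 higher at 3 h than at 2 h and 48 by the F test. Its medians for complexes I, II, III, IV subunits, IV assembly and V were -1.301, -2.67, -1.002, -1.45, -1.67 and -2.14 between 4 h and 0 h and -1.50, -1.28, -0.49, -0.90, -1.25 and -1.12 at 2 h against 1 h, and those of complex I and IV subunits at 1 h against 0 h were -0.48 and -0.26. Centring on hybridisation controls gave 0 higher genes between 4 h and 0 h, 7 lower at 1 h than at 0 h, 0 lower and 0 higher at 2 h than at 1 h and 0 lower at 3 h than at 2 h. Its medians in the same order were -0.93, -2.29997, -0.63, -1.08, -1.30027 and -1.77 between 4 h and 0 h and -1.37, -2.01, -1.73, -1.14, -2.43 and -1.75 at 1 h against 0 h. At 2 h against 1 h they were -0.0082 for complex I, 0.59 for IV subunits, 0.24 for IV assembly and 0.37 for V, and for the same 4 lists at 3 h against 2 h -0.34, -0.85, -0.052 and -1.35, with 0.58 for complex I at 4 h against 3 h. The causes were not tested.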
